A study of Mus musculus with 2 samples.

Results

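The 41 genes described here encode the ligands, receptors, extracellular antagonists, SMAD proteins and response genes of transforming growth factor beta (TGF-beta) and bone morphogenetic protein (BMP) signalling. They were taken by name from the 31053 features of 2 single-cell RNA libraries of whole back skin: 40 matched by symbol, and Ccn2 was matched by its gene ID because the files list it under the older symbol Ctgf. The libraries came from 1 Card14KI mouse, carrying the Card14 knock-in on both alleles (labelled Card14 KI +/+), and from 1 wild-type (WT) mouse. Both animals were 12 months old and on the C57BL/6 background. CARD14 is a scaffold protein of keratinocytes that leads to NF-kB, and the knock-in line is used as a model of the skin disease pityriasis rubra pilaris. With 1 mouse per genotype there is no replicate check, so genotype cannot be told apart from the animal, the dissection or the library. The intervals given are at 95% and take in the error of counting alone.

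TGF-beta, activin and BMP ligands are dimers that bind paired type I and type II serine/threonine kinase receptors. TGF-beta and activin receptors phosphorylate SMAD2 and SMAD3, BMP receptors phosphorylate SMAD1, SMAD5 and SMAD9, and both groups join SMAD4 in the nucleus. In skin, TGF-beta raises matrix production in fibroblasts and restrains keratinocyte division, whereas BMPs from the dermal papilla and epidermis act on hair follicle cycling and keratinocyte differentiation. Secreted antagonists such as follistatin, gremlin, noggin and chordin hold ligands away from their receptors.

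The Card14KI library held 3348 barcodes and 41460580 UMIs (unique transcript molecules), and the WT library 5016 barcodes and 54816411 UMIs. After filtering, 2835 Card14KI cells and 4161 WT cells remained, with medians of 6920 and 7302 UMIs per cell. Joint clustering, done without the pathway genes, gave 28 clusters, and 18 cell classes had 30 or more cells in each library. Only 2 barcodes were shared between the libraries. Outer root sheath keratinocytes (9 Card14KI and 241 WT cells) and inner root sheath keratinocytes (1 and 157 cells) came almost wholly from the WT library and were not compared. Card14 itself had 566 UMIs in kept Card14KI cells and 385 in kept WT cells, 551 and 364 of them in keratinocytes. A 3' count of the gene does not check the knock-in allele. Levels are the UMIs of a gene scaled to the UMI total of a class and library (CPM). They are not divided by transcript length, because the kit counts 3' ends. Levels are therefore compared between libraries and classes for the same gene.

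Promoter windows show the sequence in front of 3 members that recur below, chosen because each differed between the libraries in a fibroblast cluster: Tgfb2, Grem1 and Inhba. Each window runs from 250 bases before to 50 bases after the transcript start, on the strand of the gene, as given by RefSeq for GRCm38.p6. Capitals mark the letters of any of 5 motifs, searched for on both strands: a palindrome bound by SMAD3 and SMAD4, a GC-rich SMAD motif, the AP-1 motif, one form of the NF-kB motif and a TATA box. No pair of these motifs overlapped in the windows shown.
Tgfb2, chr1:186705940-186706239, minus strand: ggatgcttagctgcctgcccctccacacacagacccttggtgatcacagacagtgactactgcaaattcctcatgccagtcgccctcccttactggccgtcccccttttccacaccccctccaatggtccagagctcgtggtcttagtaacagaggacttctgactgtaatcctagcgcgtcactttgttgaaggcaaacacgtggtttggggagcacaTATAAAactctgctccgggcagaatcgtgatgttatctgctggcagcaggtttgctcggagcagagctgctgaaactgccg
Grem1, chr2:113758599-113758898, minus strand: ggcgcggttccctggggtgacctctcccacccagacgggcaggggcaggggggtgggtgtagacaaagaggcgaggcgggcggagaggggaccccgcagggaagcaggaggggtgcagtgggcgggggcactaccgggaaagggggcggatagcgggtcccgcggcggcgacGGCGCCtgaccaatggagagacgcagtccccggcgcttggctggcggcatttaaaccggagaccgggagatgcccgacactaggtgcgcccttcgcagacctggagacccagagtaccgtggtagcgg
Inhba, chr13:16011601-16011900, plus strand: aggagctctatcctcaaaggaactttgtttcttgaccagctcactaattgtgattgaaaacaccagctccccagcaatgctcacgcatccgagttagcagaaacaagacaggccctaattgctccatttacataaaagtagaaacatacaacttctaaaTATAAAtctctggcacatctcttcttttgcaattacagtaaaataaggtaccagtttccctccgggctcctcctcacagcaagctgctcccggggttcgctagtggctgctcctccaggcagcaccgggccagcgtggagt
The Tgfb2 window held 1 TATA box, the Grem1 window 1 GC-rich SMAD motif and the Inhba window 1 TATA box. RefSeq windows were held for 26 members (30 windows). The GC-rich SMAD motif, spelled GGCGCC, stood in 30% of member windows and in 11.9% of all 32851 windows, and these windows are those of 9 members. The TATA box, spelled TATAAA, stood in 13.3% of member windows and in 13.6% of all windows. The SMAD palindrome, spelled GTCTAGAC, was in 1 member window (Smad6) and in 0.213% of all windows. The NF-kB form was in 1 member window (Bmpr1b) and in 1.63% of all windows. The AP-1 letters, TGANTCA with N for any base, were in 0 member windows and in 7.81% of all windows. These matches describe letters in a short window and are not binding sites.

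Fibroblasts were the class in which most members had their highest level, among those with the same top class in both libraries. Across 12 classes, taking all fibroblasts as a single class, 13 of the 41 members had their highest level in fibroblasts in both libraries. Lymphocytes were highest for 5 members (Acvr2a, Smad3, Smad7, Skil and Id2) and lymphatic endothelial cells for 4 (Bmpr2, Gdf15, Smad2 and Smad4). Basal keratinocytes led for Bmp3, upper hair follicle keratinocytes for Inhbb, neutrophils for Thbs1 and Akr1c18 Lcn2 keratinocytes for Id1. For the other 15 members the highest class was not the same in both libraries. Because clusters are made from the cells' own RNA, these levels are a description and carry no test.

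**Figure D1:**
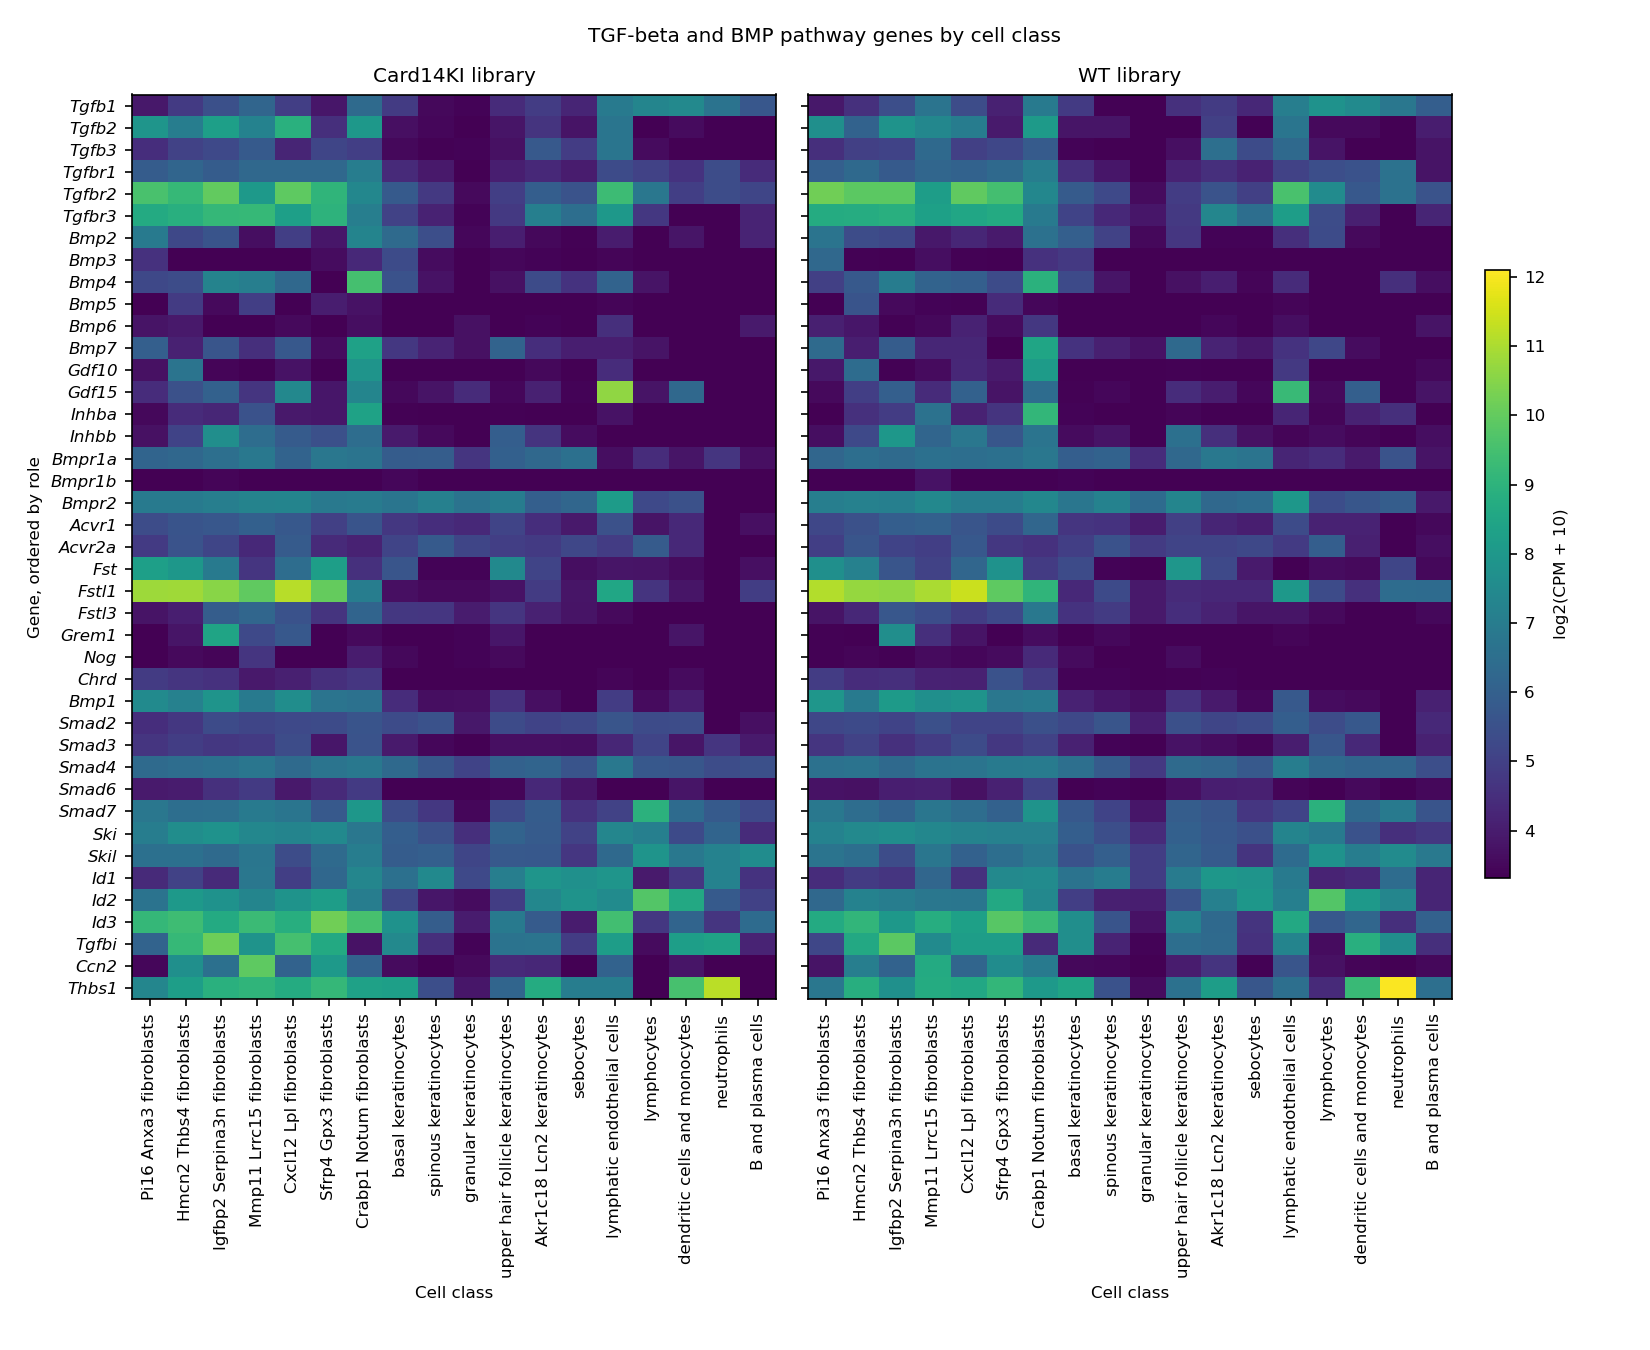
Levels of the 41 members as log2(CPM + 10) in 18 cell classes, in the Card14KI library (left) and the WT library (right), with genes ordered from ligands and receptors to antagonists, SMAD proteins and response genes. Bmp4, Bmp7 and Inhba stand out in the Crabp1 Notum fibroblasts, Grem1 in the Igfbp2 Serpina3n fibroblasts, Gdf15 in lymphatic endothelium and Thbs1 in neutrophils, in both libraries.

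In both libraries, 6 members were at least 3-fold higher in a single class than in any other of the 18 compared classes. Of these, 3 marked the Crabp1 Notum fibroblasts, a small cluster (45 Card14KI and 97 WT cells) that also carried the dermal papilla markers Rspo3, Hhip and Corin. Bmp4 (ENSMUSG00000021835, chromosome 14, 46383520 to 46390669), a BMP ligand of the papilla, had 720 CPM in Card14KI cells of this cluster and 474 CPM in WT cells. The next class, Igfbp2 Serpina3n fibroblasts, had 143 CPM in Card14KI and 119 CPM in WT. Bmp7 (ENSMUSG00000008999, chromosome 2, 172868012 to 172940321), another BMP ligand, had 317 CPM in Card14KI and 350 CPM in WT cells of the cluster, a ratio of 0.906 whose interval (0.793 to 1.03) includes 1. Inhba (ENSMUSG00000041324, chromosome 13, 16011851 to 16031621), the subunit of activin A, had 324 CPM in Card14KI and 550 CPM in WT. Gdf10 was also highest there, at 226 CPM in Card14KI and 273 CPM in WT, but in Card14KI it was less than 3-fold above the next cluster, the Hmcn2 Thbs4 fibroblasts, at 93.0 CPM in Card14KI and 75.3 CPM in WT.

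The remaining 3 of the 6 each marked a different class. Grem1 (ENSMUSG00000074934, chromosome 2, 113746164 to 113758646), the secreted BMP antagonist gremlin 1, had 340 CPM in Card14KI and 190 CPM in WT cells of the Igfbp2 Serpina3n fibroblasts. The next cluster reached 43.7 CPM in Card14KI and 12.9 CPM in WT. Gdf15 (ENSMUSG00000038508, chromosome 8, 70629393 to 70632456), a stress-induced cytokine of the family, had 1588 CPM in Card14KI and 604 CPM in WT lymphatic endothelial cells. Thbs1 (ENSMUSG00000040152, chromosome 2, 118111876 to 118127133), a matrix protein that activates latent TGF-beta, had 2356 CPM in Card14KI and 4229 CPM in WT neutrophils. The neutrophil sums were 153 UMIs in 32 Card14KI cells and 334 UMIs in 45 WT cells.

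In fibroblasts pooled over 7 clusters (1389 Card14KI and 2163 WT cells), the antagonists Fst and Grem1 and the ligand Bmp2 were higher in Card14KI, and the ligands Tgfb1 and Tgfb3 and the activin subunit gene Inhba were lower. A member was counted as measured with 20 or more UMIs over both libraries, and as past the fold when CPM + 10 differed by 1.5-fold or more. Of the 40 measured members, 6 were past the fold, 3 higher and 3 lower, and 34 were not; Bmpr1b, with 1 Card14KI and 15 WT UMIs, was not measured. Over all 13423 genes measured in fibroblasts, 5.01% were past the same fold, 2.09% higher and 2.91% lower, against 15% of measured members. The size of this gap depends on the 10 added to CPM, which holds low genes short of the fold. With 1 added in its place, 11 of the 40 members were past the fold, beside 16.2% of all genes. The median log2 ratio was -0.10 over members and -0.07 over all genes. With the libraries scaled to the median ratio of well-counted genes in place of class totals, a shift of -0.13 on the log2 scale, 8 members were past the fold, 7 higher and 1 lower, so the balance of directions rests on the scaling. The share of all genes past the fold was then 5.3%.

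Fst (ENSMUSG00000021765, chromosome 13, 114452290 to 114458951) encodes follistatin, which binds activins. It had 199 CPM (190 to 209) in Card14KI fibroblasts and 84.7 CPM (80.5 to 89.1) in WT fibroblasts, a ratio of 2.35 (2.20 to 2.52). With each cell thinned to 2000 UMIs, 23.3% of Card14KI fibroblasts and 12.7% of WT fibroblasts had an Fst UMI, against 39.2% and 26.1% unthinned. In lymphocytes, which stand for background, 1.37% of Card14KI and 0.535% of WT cells had one unthinned, and after thinning 0 of 129 and 0 of 326, with upper 95% bounds of 2.82% and 1.13%. Fibroblasts had medians of 5592 and 7165 UMIs per cell in Card14KI and WT, and lymphocytes 3295 and 3172.5; thinning left out 109 Card14KI and 151 WT fibroblasts.

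Grem1 had 54.1 CPM (49.3 to 59.1) in Card14KI and 28.2 CPM (25.8 to 30.8) in WT fibroblasts, a ratio of 1.91 (1.69 to 2.17). Bmp2 (ENSMUSG00000027358, chromosome 2, 133552159 to 133562885), a BMP ligand, had 78.0 CPM (72.3 to 84.0) in Card14KI and 35.3 CPM (32.6 to 38.1) in WT, a ratio of 2.21 (1.98 to 2.47). In these 3 genes the Card14KI level stood well above the counting interval of the WT level.

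Inhba had 47.5 CPM (43.1 to 52.3) in Card14KI and 81.5 CPM (77.4 to 85.8) in WT fibroblasts, a ratio of 0.583 (0.522 to 0.650). The pooled Inhba level drew on the small Crabp1 Notum cluster, at 324 CPM in Card14KI and 550 CPM in WT. Median UMIs per cell in that cluster were 25616 in Card14KI and 5431 in WT. Tgfb1 (ENSMUSG00000002603, chromosome 7, 25687002 to 25705077) had 22.9 CPM (19.9 to 26.3) in Card14KI and 47.1 CPM (44.0 to 50.4) in WT, a ratio of 0.486 (0.415 to 0.567). Tgfb3 (ENSMUSG00000021253, chromosome 12, 86056745 to 86079041) had 18.9 CPM (16.1 to 22) in Card14KI and 35.2 CPM (32.5 to 38.1) in WT, a ratio of 0.536 (0.449 to 0.636). All 3 lower genes are ligands or ligand subunits of the TGF-beta and activin branch, but the branch did not move as a whole. Tgfb2, at a higher level than Tgfb1 or Tgfb3, went the other way, with 229 CPM in Card14KI and 153 CPM in WT fibroblasts. Inhbb was lower, at 50.4 CPM in Card14KI and 78.0 CPM in WT. The log2 ratios of Tgfb2 (0.55) and Inhbb (-0.54) were both short of the fold. Tgfb3 was not past the fold when CPM was averaged over cells (log2 ratio -0.41). With median-ratio scaling Inhba (-0.56) and Tgfb3 (-0.55) fell short of the fold, and Tgfb1 (-0.70) did not. Leaving out the Pi16 Anxa3 cluster, an alternative chosen after seeing the data, gave log2 ratios of -0.21 for Inhba, -0.48 for Tgfb1 and -0.53 for Tgfb3, all short of the fold, while Fst (0.88), Grem1 (1.27) and Bmp2 (0.88) stayed past it. Without the Mmp11 Lrrc15 cluster Tgfb1 (-0.40) and Tgfb3 (-0.28) fell short of the fold, and Inhba (-0.61) did not.

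The mix of fibroblast clusters differed between the libraries, and several pooled ratios moved with it. By cells, Pi16 Anxa3 fibroblasts made up 37.1% of Card14KI and 17.2% of WT fibroblasts, and Mmp11 Lrrc15 fibroblasts, which carry dermal sheath markers, 6.41% and 20%. Pooled CPM weights clusters by UMIs, of which fibroblasts had 8896995 in Card14KI and 17880753 in WT. Pi16 Anxa3 fibroblasts held 3858485 and 2894826 of these, Mmp11 Lrrc15 fibroblasts 385988 and 4478841, and Crabp1 Notum fibroblasts 1155278 and 1712286. When each cluster was given the same weight in both libraries, Bmp2 went to a log2 ratio of 0.30 in place of 0.96, Tgfb1 to -0.33 in place of -0.80 and Tgfb3 to -0.30 in place of -0.65. Fst also moved, to 0.59 in place of 1.14, and was then only just past the fold. Grem1 (0.78 in place of 0.74) and Inhba (-0.71 in place of -0.67) stayed past it with little change. The Inhba log2 ratio was -1.36 both with CPM averaged over cells and without the Crabp1 Notum cluster, against -0.67 pooled. Ccn2, a secreted target gene of TGF-beta and YAP, turned its direction: its pooled log2 ratio was -0.54, with 104 CPM in Card14KI and 156 CPM in WT, and its weighted log2 ratio was 0.80, with 206 CPM and 114 CPM. Gdf15 also passed the fold when weighted (0.76), as did Bmp3 in the lower direction (-1.07). The summed level of 8 general fibroblast markers, among them collagen genes, was 26629 CPM in Card14KI and 49095 CPM in WT fibroblasts, with 7 of the 8 lower in Card14KI. Its part in these ratios was not tested.

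**Figure D2:**
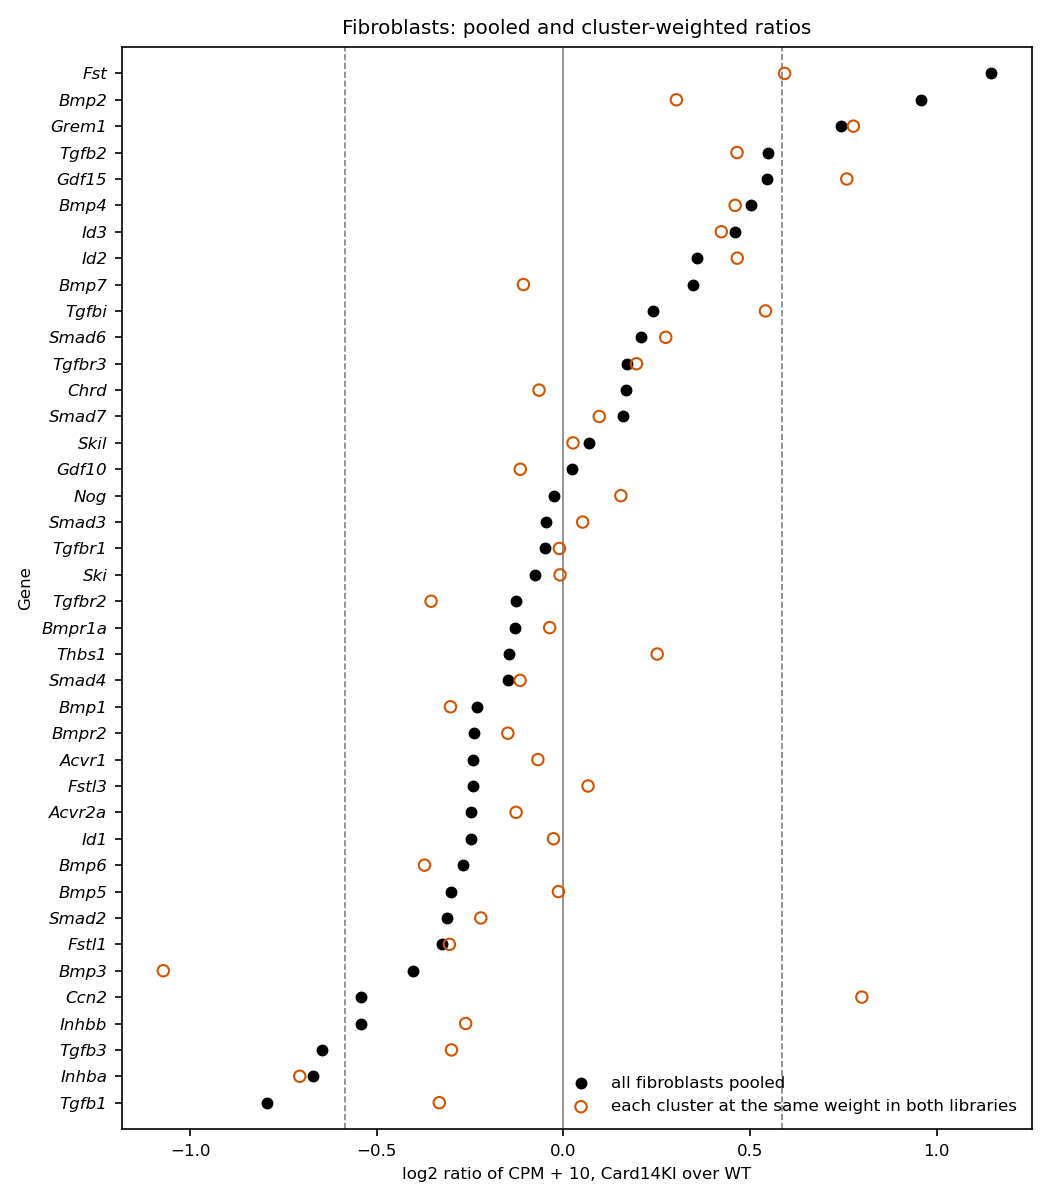
Log2 ratio of CPM + 10, Card14KI over WT, of the 40 measured members in fibroblasts, for all fibroblasts pooled (filled) and for each cluster at the same weight in both libraries (open). Dashed lines mark 1.5-fold. Fst, Grem1 and Inhba lie past the lines in both forms, Fst only just in the weighted form. Bmp2, Tgfb1 and Tgfb3 lie past them in the pooled form alone, and Ccn2 changes sides.

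Within the fibroblast clusters, the higher members recurred in different company. The Cxcl12 Lpl fibroblasts (119 Card14KI and 355 WT cells) had 12 of 36 measured members past the fold, 8 higher and 4 lower, where 14.3% of all genes were past it (4.74% higher and 9.59% lower). Tgfb2 (ENSMUSG00000039239, chromosome 1, 186622792 to 186705989), a TGF-beta ligand, had 468 CPM in Card14KI and 118 CPM in WT, a ratio of 3.95 (3.35 to 4.65). After thinning, 51.3% of Card14KI and 20.7% of WT cells of this cluster had a Tgfb2 UMI, against 73.1% and 47.0% unthinned; in lymphocytes the unthinned shares were 0% (0 of 146 cells) and 0.267%. Tgfbi, a matrix protein named for its induction by TGF-beta, had 727 CPM in Card14KI and 282 CPM in WT there, and the BMP target gene Id2 had 218 CPM and 97.9 CPM.
Grem1 had 43.7 CPM in Card14KI and 3.83 CPM in WT, and Bmp7 43.7 CPM and 9.41 CPM, each on 25 Card14KI UMIs. Inhbb, the subunit of activin B, was lower, at 47.2 CPM in Card14KI and 100.7 CPM in WT. Of the 12 members, 8 kept an interval off 1 and stayed past the fold under a pair of alternatives, leaving out the top cell of each library and averaging CPM over cells: Tgfb2, Tgfbi, Bmp2, Bmp7, Grem1, Gdf15 and Id2 higher, and Inhbb lower. Of the genes that name the cluster, Cxcl12 had 2095 CPM in Card14KI and 2906 CPM in WT, and Lpl 694 CPM and 2018 CPM. The 6 dermal sheath markers summed to 107 CPM in Card14KI and 332 CPM in WT, all 6 lower. The part of these differences in the ratios was not tested.

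In the Igfbp2 Serpina3n fibroblasts (285 Card14KI and 332 WT cells), the antagonists Fst and Grem1 and the response genes Id2, Id3 and Thbs1 were among the members higher in Card14KI. Of 35 measured members, 6 were higher (those 5 and Skil) and 1 was lower (Inhba), where 7.54% of all genes were past the fold (4.48% higher and 3.06% lower), and all 7 held in both alternatives named above. The antagonists Fstl1, Fstl3 and Chrd and the response genes Id1, Tgfbi and Ccn2 were measured there and were not past the fold. Fst had 112 CPM in Card14KI and 39.3 CPM in WT, a ratio of 2.86 (2.18 to 3.77). Thbs1 had 461 CPM in Card14KI and 201 CPM in WT. Skil, a repressor of SMAD-driven transcription, had 72.9 CPM in Card14KI and 30.9 CPM in WT. Id2 and Id3, BMP target genes that block basic helix-loop-helix factors, had 215 and 399 CPM in Card14KI, against 122 and 246 CPM in WT. Serpina3n had 1313 CPM in Card14KI and 1298 CPM in WT cells of the cluster, while Igfbp2 had 275 CPM and 1799 CPM. The 8 fibroblast markers summed to 67441 CPM in Card14KI and 121706 CPM in WT; the part of these differences was not tested.

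The Hmcn2 Thbs4 fibroblasts (251 Card14KI and 494 WT cells) had 8 of 36 measured members past the fold, 5 higher and 3 lower, beside 5.28% of all genes (1.99% higher and 3.29% lower). Those that held in both alternatives were Tgfb2, Tgfbi, Fst and Id2, all higher, and the type II TGF-beta receptor Tgfbr2, lower. Tgfb2 had 122 CPM in Card14KI and 58.4 CPM in WT, and Tgfbr2 had 581 CPM and 934 CPM. The Pi16 Anxa3 fibroblasts (516 Card14KI and 373 WT cells) had 5 of 34 past the fold, beside 4.3% of all genes (1.59% higher and 2.7% lower). Tgfbr2 was lower there too, at 762 CPM in Card14KI and 1173 CPM in WT, and Bmp3, a BMP that opposes other BMPs, had 14 CPM and 68.4 CPM, a ratio of 0.205 (0.149 to 0.278). Smad2, a transducer of TGF-beta and activin signals, had 12.2 CPM in Card14KI and 26.6 CPM in WT. Tgfbi and Gdf15 were higher there from low levels, 58.8 and 11.4 CPM in Card14KI, against 26.6 and 1.73 CPM in WT. With CPM averaged over cells the log2 ratio of Tgfbr2 in this cluster was -0.54, short of the fold.

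The Mmp11 Lrrc15 fibroblasts (89 Card14KI and 432 WT cells) had 11 of 35 measured members past the fold, 7 higher and 4 lower, beside 21.3% of all genes (7.57% higher and 13.7% lower). Ccn2 had 956 CPM in Card14KI and 401 CPM in WT, a ratio of 2.38 (2.13 to 2.67), and the co-receptor Tgfbr3 had 580 CPM and 311 CPM. Fstl1, a secreted follistatin-like glycoprotein, had 979 CPM in Card14KI and 2031 CPM in WT, Bmp1, a proteinase that processes procollagen and chordin, 109 CPM and 197 CPM, and Inhba 36.3 CPM and 89.5 CPM. The 6 dermal sheath markers summed to 1114 CPM in Card14KI and 3284 CPM in WT, 5 of them lower, and their part was not tested. The Sfrp4 Gpx3 fibroblasts (84 Card14KI and 80 WT cells) had 3 of 24 measured members past the fold, all lower, beside 20% of all genes (5.28% higher and 14.7% lower). Of these Chrd, the BMP antagonist chordin, held in both alternatives on 6 Card14KI and 19 WT UMIs.

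The Crabp1 Notum fibroblasts had 12 of 38 measured members past the fold, 3 higher and 9 lower, beside 14.4% of all genes (3.8% higher and 10.6% lower). Bmp4 had a ratio of 1.52 (1.38 to 1.67), and Bmp2 had 145 CPM in Card14KI and 86.4 CPM in WT, a ratio of 1.68 (1.34 to 2.11). The 9 lower members were Tgfb1, Tgfb3, Tgfbi, Bmp6, Acvr1, Inhba, Fstl1, Fstl3 and Ccn2. Tgfbi and Ccn2, higher past the fold in other fibroblast clusters, were thus lower here. Inhba had a ratio of 0.589 (0.521 to 0.665), and Fstl1 had 123 CPM in Card14KI and 530 CPM in WT. Of the 12, 10 held in both alternatives; Tgfb1 and Gdf15 did not. Cells of this cluster had a median of 25616 UMIs in Card14KI and 5431 UMIs in WT. After thinning to 2000 UMIs, which left out 5 Card14KI and 19 WT cells, 65.0% of Card14KI and 48.7% of WT cells had a Bmp4 UMI (82.2% and 69.1% unthinned). For Inhba the thinned shares were 55.0% and 48.7% (77.8% and 81.4% unthinned), so the share of cells did not follow the lower CPM. The summed level of 8 fibroblast markers was 2456 CPM in Card14KI and 7782 CPM in WT. Of the 7 dermal papilla markers, 5 were lower in Card14KI, among them Corin (33.8 CPM in Card14KI and 153 CPM in WT) and Rspo3 (196 and 376 CPM). The 2 higher ones were Sox2 (32.0 and 22.2 CPM) and Crabp1 (2674 and 1274 CPM). With Crabp1 in it, the sum of the 7 was 3073 CPM in Card14KI and 2024 CPM in WT. The 9 keratinocyte markers summed to 727 CPM in Card14KI and 294 CPM in WT, all 9 higher. The part of cell make-up and depth in these ratios was not tested.

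Id3 was higher in Card14KI in each of the 7 fibroblast clusters, with an interval above 1 in every one, and past the fold in 1 of them. The ratios ran between 1.18 (1.08 to 1.29) in the Crabp1 Notum cluster and 1.63 (1.44 to 1.84) in the Igfbp2 Serpina3n cluster, and the pooled level was 599 CPM in Card14KI and 433 CPM in WT. Gdf15 was also higher in all 7 clusters, with an interval above 1 in 4, and Inhba was lower in 6 of 7, with an interval below 1 in 3. The Id3 pattern was not particular to it. Junb, from the second list of pathway genes below, was higher in all 7, with an interval above 1 in all 7, and past the fold in 4. The share of all genes with such a pattern is not given. The receptors Tgfbr1 and Bmpr1a had no interval off 1 in any of the 7 clusters.

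**Figure D3:**
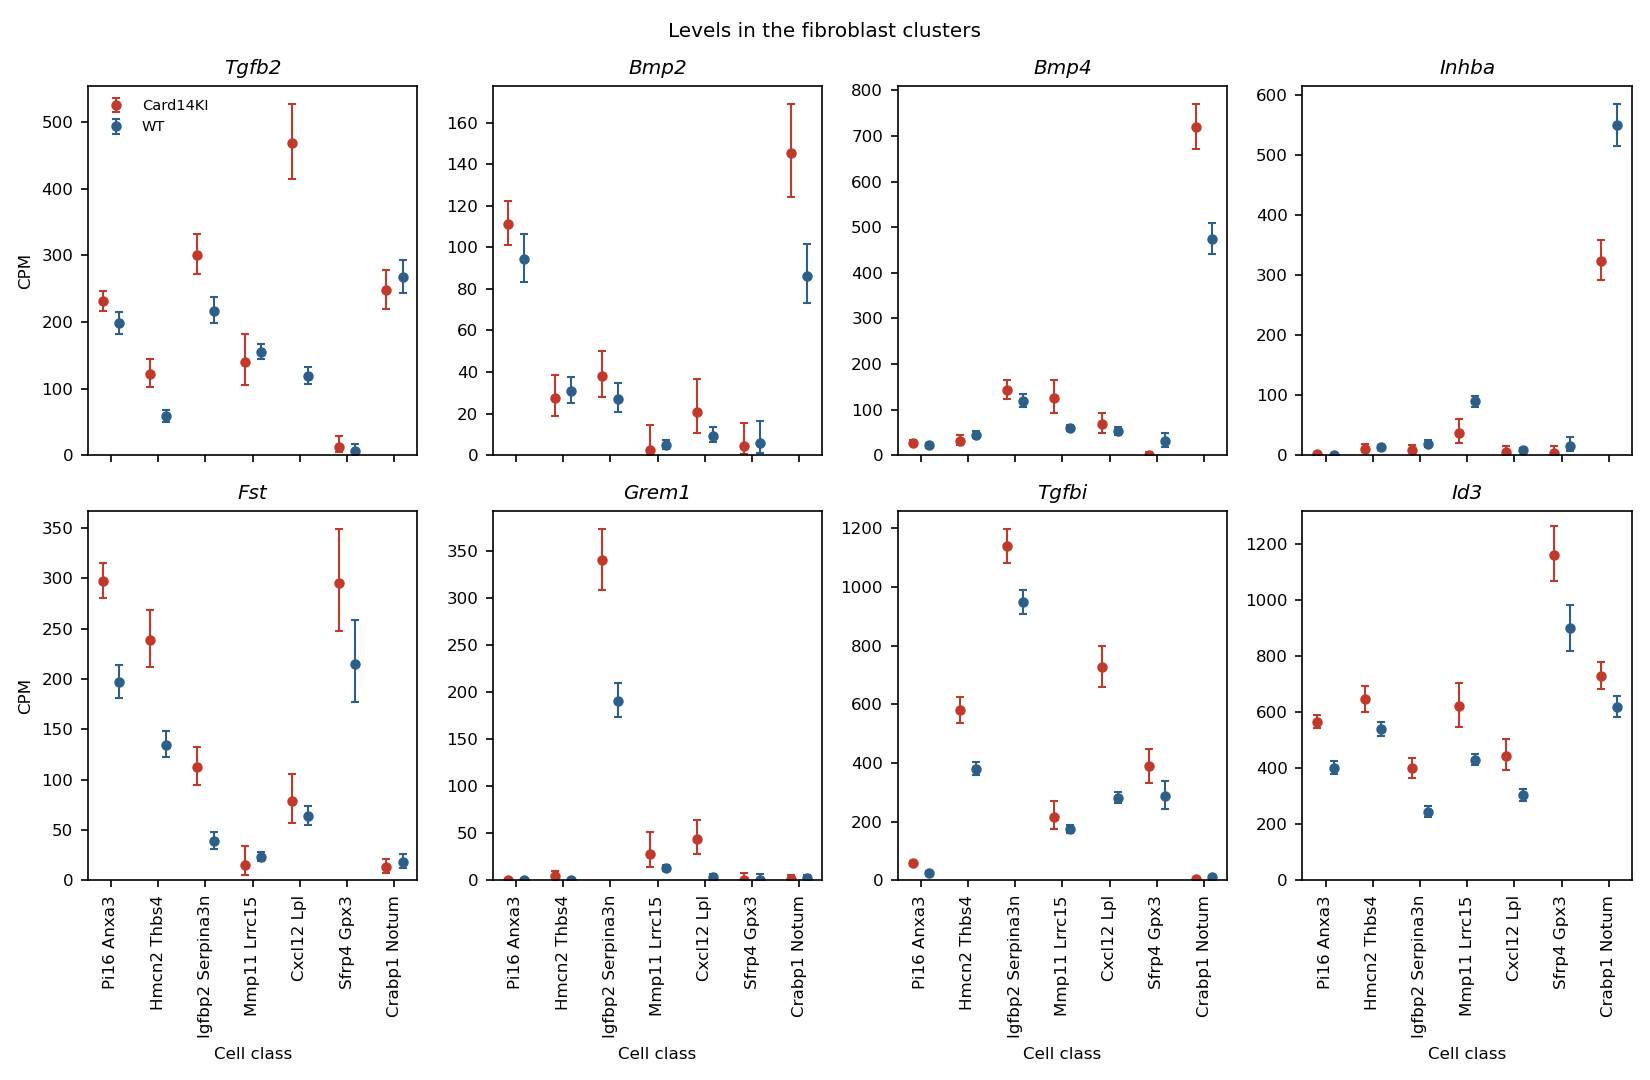
CPM of 8 members in the 7 fibroblast clusters, Card14KI (red, left of each pair) and WT (blue, right), with 95% Poisson intervals that cover counting error only. Tgfb2 differs most in the Cxcl12 Lpl cluster, Bmp4 and Inhba are highest in the Crabp1 Notum cluster, Grem1 in the Igfbp2 Serpina3n cluster, and Id3 is higher in Card14KI in all 7.

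Few members were past the fold in interfollicular keratinocytes. In basal keratinocytes (272 Card14KI and 110 WT cells), 1 of 30 measured members was past the fold, beside 2.52% of all genes (1.61% higher and 0.908% lower). In spinous keratinocytes (189 Card14KI and 85 WT cells) it was 1 of 24, beside 3.51% (1.62% higher and 1.89% lower), and in granular keratinocytes (83 and 58 cells) 1 of 9, beside 12.6% (9.73% higher and 2.89% lower). The member past the fold in both lower layers was Fstl1 (ENSMUSG00000022816, chromosome 16, 37776873 to 37836514). It had 1.68 CPM (9 UMIs) in Card14KI and 29.1 CPM (80 UMIs, 27 of them in 1 cell) in WT spinous cells, and 2.80 CPM (26 UMIs) in Card14KI and 10.3 CPM (31 UMIs) in WT basal cells. Fstl1 is a fibroblast gene, with 1485 CPM in Card14KI and 1863 CPM in WT fibroblasts. The 8 fibroblast markers summed to 28.6 CPM in Card14KI and 544 CPM in WT spinous cells, and to 105 CPM and 230 CPM in basal cells, with all 8 lower in Card14KI and none at 0 in either layer. Their part in the Fstl1 difference was not tested. The basal Fstl1 log2 ratio of -0.66 fell short of the fold with the stricter filter on cells (-0.55) and with doublets kept (-0.31). The granular member was Gdf15, with 21 UMIs in Card14KI, 18 of them in 1 cell, and 0 UMIs in WT, which allows up to 1.98 CPM.

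Members with sizeable levels in the basal and spinous layers stayed within the fold. Bmp2, a ligand of the basal layer, had 71.1 CPM (65.8 to 76.7) in Card14KI and 53.3 CPM (45.4 to 62.2) in WT basal cells, a ratio of 1.33 (1.12 to 1.59), and 33.3 CPM and 23.6 CPM in spinous cells. Bmp3 had 29.8 CPM in Card14KI and 17.2 CPM in WT basal cells, a plain ratio of 1.73 that came under the fold once 10 was added to both levels. Id1, a direct BMP target gene, had 168 CPM in Card14KI and 117 CPM in WT spinous cells, a ratio of 1.43 (1.26 to 1.63), but 84.9 CPM and 92.7 CPM in basal cells. Bmpr1a had 48.1 CPM in Card14KI and 51.0 CPM in WT basal cells, Smad4 70.0 CPM and 82.8 CPM, and Tgfbi 164 CPM and 191 CPM.

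Upper hair follicle keratinocytes (166 Card14KI and 153 WT cells) had 6 of 30 measured members past the fold, all lower in Card14KI, beside 4.19% of all genes (1.91% higher and 2.29% lower). They were Bmp2, Inhbb, Fstl1, Gdf15, Id2 and Smad7. The 8 fibroblast markers summed to 36.7 CPM in Card14KI and 248 CPM in WT there, and their part in the Fstl1 value was not tested. Of these 6 members, only Smad7, an inhibitory SMAD induced by the pathway, held in both alternatives, at 28.1 CPM in Card14KI and 49.7 CPM in WT. Fst had 171 CPM in Card14KI and 233 CPM in WT there, the opposite direction to fibroblasts, with a ratio of 0.735 (0.659 to 0.820). The Akr1c18 Lcn2 keratinocytes (99 and 126 cells), which no marker list named, had Bmp4 higher at 29.7 CPM in Card14KI and 6.72 CPM in WT, and Tgfb3 lower at 44.9 CPM and 81.7 CPM, 2 of 29 measured members beside 6.96% of all genes (2.16% higher and 4.8% lower). In the WT library alone, outer root sheath cells had 294 CPM of Id1 and 133 CPM of Bmpr1a, and inner root sheath cells had 707 CPM of Id3 and 188 CPM of Smad7.

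Sebocytes (169 Card14KI and 183 WT cells) had 4 of 26 measured members past the fold, beside 2.49% of all genes (1.32% higher and 1.16% lower). They were pooled from clusters of 87 and 82 Card14KI cells and of 103 and 80 WT cells. Bmp4 had 14.3 CPM (67 UMIs) in Card14KI and 0.784 CPM (4 UMIs) in WT, a ratio of 18.3 (6.81 to 68.9). Thbs1 had 122 CPM in Card14KI and 40.4 CPM in WT, Tgfbr2 had 37.8 CPM and 21.8 CPM, and Id3 had 5.98 CPM and 14.9 CPM. The first 3 held in both alternatives, and Id3 did not. Id1, the BMP target with the larger count there, had 201 CPM in Card14KI and 224 CPM in WT.

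**Figure D4:**
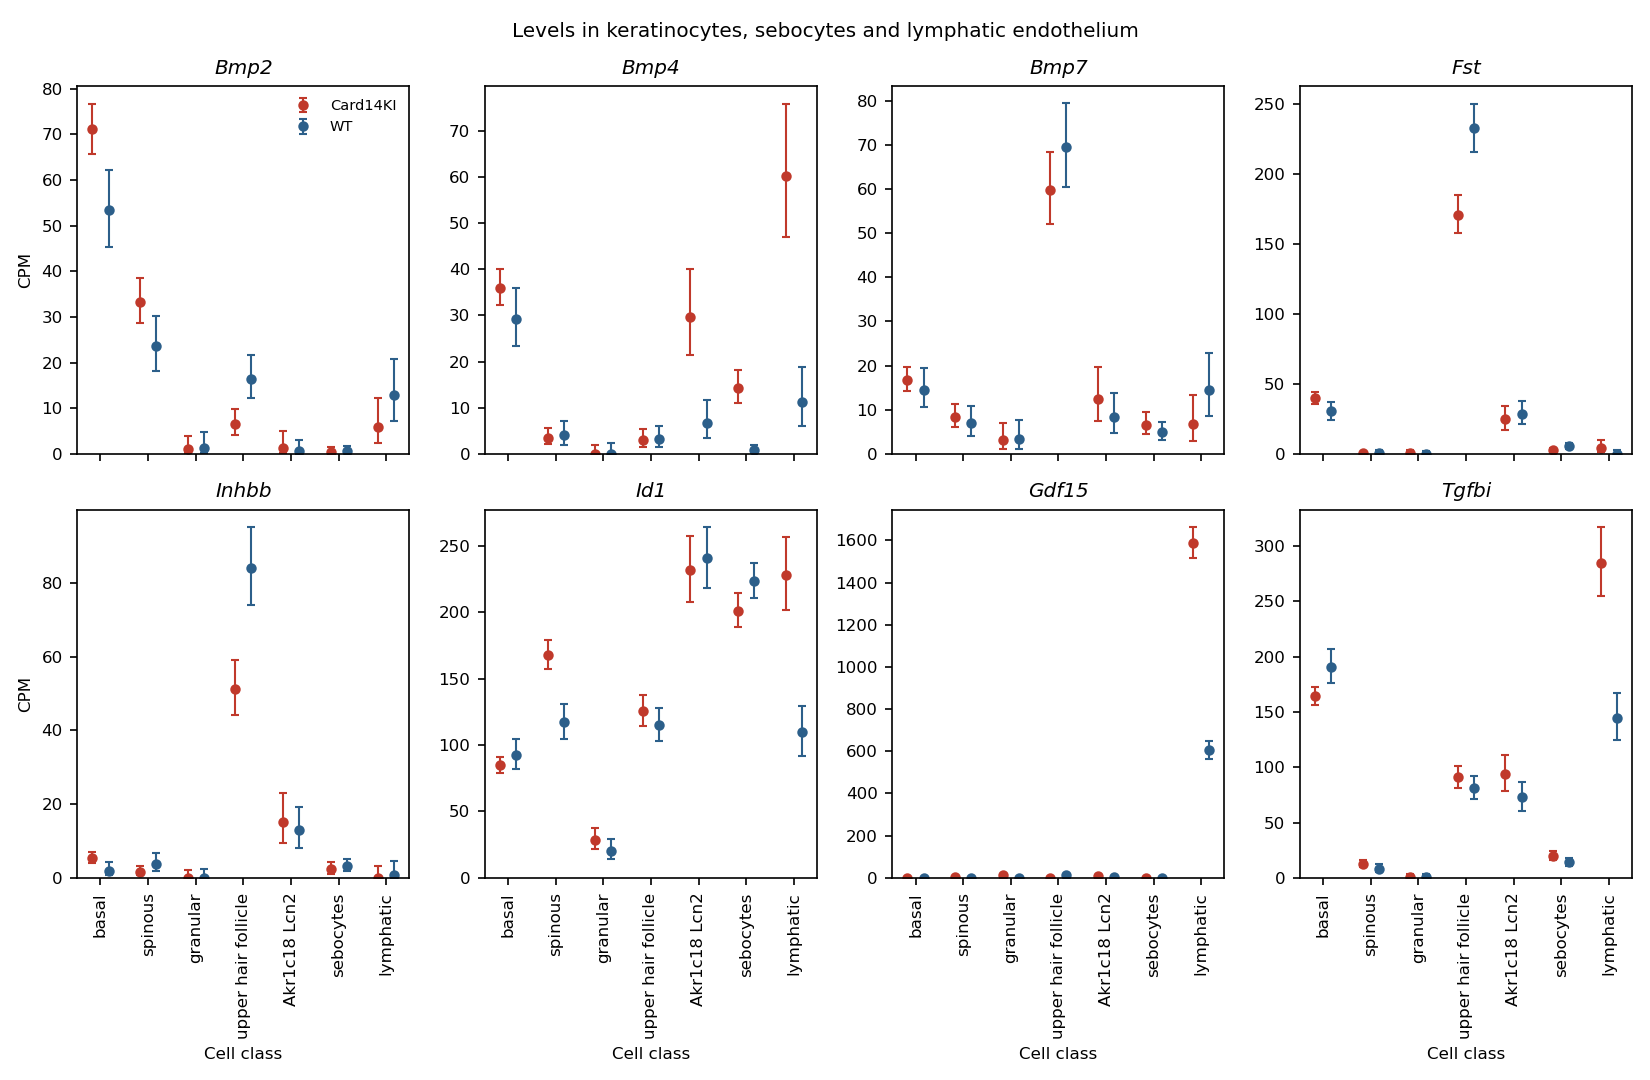
CPM of 8 members in 5 keratinocyte classes, sebocytes and lymphatic endothelial cells, Card14KI (red, left of each pair) and WT (blue, right), with 95% Poisson intervals that cover counting error only. Bmp2 is highest in basal cells and Fst, Bmp7 and Inhbb in upper hair follicle cells, and Gdf15, Id1, Tgfbi and Bmp4 are higher in Card14KI in lymphatic endothelium.

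Lymphatic endothelial cells (77 Card14KI and 103 WT cells) had 6 of 27 measured members past the fold, 5 higher and 1 lower, beside 13.8% of all genes (4.02% higher and 9.8% lower). Gdf15 had a ratio of 2.63 (2.41 to 2.86). The cell with the most Gdf15 held 477 of 1874 UMIs in Card14KI and 238 of 755 in WT, and without those cells the log2 ratio was 1.49, against 1.38 with them. After thinning, 35.3% of Card14KI and 12.4% of WT lymphatic cells had a Gdf15 UMI, against 49.4% and 21.4% unthinned. Spinous keratinocytes had unthinned shares of 4.23% and 2.35%, and lymphatic cells had medians of 6607 and 6521 UMIs in Card14KI and WT. The BMP target genes Id1 and Id3 had 228 and 690 CPM in Card14KI lymphatic cells, against 110 and 388 CPM in WT, and Bmp4 had 60.2 CPM and 11.2 CPM. Bmp1 was lower, at 19.5 CPM in Card14KI and 44.8 CPM in WT. All but Id3 held in both alternatives. In this class the 8 fibroblast markers summed to 208 CPM in Card14KI and 662 CPM in WT, all 8 lower, and the 6 dermal sheath markers to 1034 CPM and 2049 CPM, all 6 lower. The 8 smooth muscle or pericyte markers summed to 156 CPM in Card14KI and 722 CPM in WT, 7 of them lower, and the 6 lymphatic markers to 25153 CPM and 33902 CPM, 5 of them lower. In Card14KI 1 fibroblast marker and 1 dermal sheath marker were at 0. The part of these markers in the ratios was not tested, that of Bmp1, which was highest in fibroblasts, included.

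In immune cells the members past the fold were mostly lower in Card14KI, as were all genes past the fold in the same classes. Lymphocytes (146 Card14KI and 374 WT cells) had 6 of 18 measured members past the fold, all lower, beside 14.9% of all genes (3.75% higher and 11.2% lower). This class pools clusters of 116, 17 and 13 Card14KI cells and of 260, 59 and 55 WT cells, in the same order. The part of that mix in the lymphocyte ratios was not tested. Bmp2, Bmp7 and Id3 held in both alternatives. Bmp2 had 0 UMIs in Card14KI, which allows up to 5.70 CPM, and 30 CPM in WT; Bmp7 had 3.80 CPM (2 UMIs) and 26.2 CPM; and Id3 had 17.1 CPM and 43.1 CPM. The 8 fibroblast markers summed to 85.6 CPM in Card14KI and 428 CPM in WT lymphocytes, 1 of them at 0 in Card14KI; their part was not tested. Smad7 and Id2, both highest in lymphocytes, were level: Smad7 had 489 CPM in Card14KI and 477 CPM in WT, a ratio of 1.02 (0.882 to 1.19), and Id2 844 CPM and 842 CPM. In dendritic cells and monocytes (76 and 193 cells), Tgfbr1, Tgfbr2 and Tgfbi were lower, 3 of 15 measured members beside 14.6% of all genes (3.95% higher and 10.7% lower); Tgfbi had 293 CPM in Card14KI and 456 CPM in WT. Neutrophils had 2 of 3 measured members past the fold beside 32.4% of all genes (9.9% higher and 22.5% lower), and B and plasma cells 3 of 8 beside 27.1% (7.29% higher and 19.8% lower); of these 5, Thbs1 in neutrophils and Fstl1 in B and plasma cells held in both alternatives. In B and plasma cells the fibroblast markers summed to 387 CPM in Card14KI and 2295 CPM in WT, and their part in the Fstl1 difference was not tested. That class too is pooled, from clusters of 18 and 23 Card14KI cells and of 49 and 32 WT cells. It had medians of 8248 UMIs per cell in Card14KI and 3567 UMIs in WT.

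The members not yet given were low, or within the fold, in pooled fibroblasts. Bmp5, Bmp6, Smad6 and Nog, the antagonist noggin, stayed under 10 CPM in pooled fibroblasts of both libraries. The receptors Bmpr2, Acvr1 and Acvr2a, the transducer Smad3 and the SMAD corepressor Ski had pooled log2 ratios between -0.25 and -0.05. Tgfbr1, a type I TGF-beta receptor, had 63.1 CPM in Card14KI and 65.7 CPM in WT. Fstl3, a follistatin relative, had 23.5 CPM in Card14KI and 29.6 CPM in WT.

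A second list of 65 pathway genes, chosen by role, gave the setting. In pooled fibroblasts 55 were measured and 8 were past the fold, 2 higher and 6 lower, beside the 5.01% of all genes. Chrdl1, a chordin-like BMP antagonist, had 214 CPM in Card14KI and 75.6 CPM in WT, and Junb, an AP-1 subunit gene that TGF-beta induces, 2543 CPM and 1470 CPM. Among those lower in Card14KI were Pmepa1, Ltbp2, Itgb5, Bmper and Cdkn2b. Bmper, a BMP-binding regulator, had 10.5 CPM in Card14KI and 35.3 CPM in WT, a ratio of 0.296 (0.235 to 0.368). With equal cluster weights, 2 of the 8 stayed past the fold, Pmepa1 and Bmper, and Chrdl1 had a log2 ratio of 0.34 in place of 1.39. In the alternatives of leaving out the top cell and averaging CPM over cells, Chrdl1 and Bmper alone held in both. In the epidermal layers, Snai2 was lower in basal cells, 1 of 37 measured genes beside 2.52% of all genes. In spinous cells 5 of 32 were past the fold, beside 3.51% of all genes (1.62% higher and 1.89% lower). Pmepa1, Ltbp4, Htra3 and Bhlhe40 were lower there, and Tgif1 was higher. Of these Pmepa1, Htra3 and Bhlhe40 held in both alternatives, as did Snai2 in basal cells. The 8 fibroblast markers were also lower in spinous cells (28.6 CPM in Card14KI and 544 CPM in WT), and their part was not tested. Acvr1b and Id4 were higher in granular cells, 2 of 14 measured genes (14.3%). This was near the 12.6% of all genes past the fold there (9.73% higher and 2.89% lower), and only Id4 held in both alternatives. In upper hair follicle cells Id4 was higher, and Tgif1 and Pmepa1 were lower. These were 3 of 35 measured genes, beside 4.19% of all genes (1.91% higher and 2.29% lower). Id4 and Pmepa1 held in both alternatives there.

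Pmepa1, a TGF-beta target gene whose product limits SMAD signalling, was past the fold in some classes and not in others; the difference between classes was not tested. It had 304 CPM in Card14KI and 575 CPM in WT fibroblasts, a log2 ratio of -0.90 that fell short of the fold with CPM averaged over cells (-0.53) and without the Mmp11 Lrrc15 cluster (-0.26). It was past the fold, lower, and held in both alternatives in the Mmp11 Lrrc15 cluster (484 CPM in Card14KI and 1232 CPM in WT), the Cxcl12 Lpl cluster (169 and 266 CPM), the Akr1c18 Lcn2 keratinocytes (11.7 and 58.2 CPM), sebocytes (8.33 and 103 CPM), spinous cells and upper hair follicle cells. It was also lower in the Crabp1 Notum cluster (319 and 846 CPM), in dendritic cells and monocytes and in B and plasma cells, without holding in both. In the Pi16 Anxa3 cluster (293 and 269 CPM), the Hmcn2 Thbs4 cluster (329 and 333 CPM), the Sfrp4 Gpx3 cluster (716 and 701 CPM) and basal keratinocytes (59.2 and 66.2 CPM), the intervals of the ratios included 1. The interval in the Igfbp2 Serpina3n cluster included 1 too. Pmepa1 was within the fold in lymphatic endothelial cells and lymphocytes. It was not measured in granular keratinocytes and neutrophils.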

How the data were processed

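Per the labels' protocols, whole back skin was digested for 73 min, cleared of dead cells and made into 10x Genomics 3' libraries. The authors deposited whole-number UMI counts per gene and barcode, not normalized. Per the submitters' processing notes Cell Ranger 6.0.2 and mm10 were used, whereas per the file headers the software was Cell Ranger 5.0.0; which is right is not known.

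Barcodes with under 500 genes or 20% or more mitochondrial UMIs were removed (435 in Card14KI and 681 in WT). Scrublet's automatic threshold marked 4 and 2 cells, too few to rely on; in its place the 78 Card14KI and 174 WT cells of highest score were dropped, at a rate of 0.8% per 1000 barcodes. Both libraries were clustered together (scanpy 1.11.5, leidenalg 0.10.2) after scaling each cell to 10000 UMIs, from 30 principal components of 2000 variable genes, 20 neighbours and resolution 1. The variable genes held no member, no other pathway gene, and none of the genes of the cell cycle, mitochondria, ribosome or haemoglobin. Broad classes and keratinocyte layers were named from marker lists, and fibroblast clusters by leading genes; rebuilt names can differ from those of the study.

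UMIs were summed per class and library and scaled to CPM. Log2 ratios, Card14KI over WT, were taken after adding 10 to CPM, so low genes show smaller ratios; plain ratios have exact conditional intervals, levels exact Poisson intervals and shares Clopper-Pearson intervals. The limit for a count of 0 is 3 counts. No test was made and no p-value computed, since there was 1 library per genotype. The ratio computation was tested on simulated counts. A member "held in both alternatives" where its interval left out 1 and it stayed past 1.5-fold both without the top cell of each library and with CPM averaged over cells. Values are given in full for members past 1.5-fold with an interval off 1 in fibroblasts, basal or spinous keratinocytes and for members at least 3-fold higher in a single class; in the other classes named members were chosen after their values were seen. Members and lists were chosen with earlier results of these data known. Coordinates are 1-based, from GENCODE vM21 on GRCm38, the assembly that mm10 names. One of the other pathway genes past the fold in fibroblasts is counted but not reported here.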

Additional observations from a re-analysis of the deposited data

How the results depend on the processing

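Counts past the fold were 6 members in fibroblasts, 1 in spinous and 1 in basal keratinocytes, 8 other pathway genes in fibroblasts, and 13 members highest in fibroblasts. The fibroblast count of members was between 5 and 9 under every alternative but 1. Under those alternatives between 2.53% and 5.81% of all genes were past the fold. With CPM + 1 the fibroblast count was 11 of 40, with 13 other pathway genes, beside 16.2% of all genes. The CPM + 1 counts were 3 of 24 members in spinous cells, beside 13.1% of all genes, and 3 of 30 in basal cells, beside 12.8%. Without a filter on cells the counts were 2 (spinous, beside 3.41% of all genes) and 4 (basal, beside 2.3%). The stricter filter gave 3 (basal, beside 2.51% of all genes), and keeping doublets 3 (spinous, beside 4.19%). With doublets kept the basal count stayed at 1 (beside 2.23%), but as 1 higher and 0 lower, with Fstl1 at -0.31. Leaving out the top cell gave 3 (basal, beside 2.77% of all genes). Averaging CPM over cells gave 2 (spinous, beside 6.43%), 2 (basal, beside 7.3%) and 3 other pathway genes (fibroblasts, beside 3.58%). Equal cluster weights gave 2 other pathway genes, beside 2.53% of all genes. Leaving out single fibroblast clusters, an alternative chosen after seeing the data, gave 4 other pathway genes without the Mmp11 Lrrc15 cluster, beside 3.44% of all genes. Without the Pi16 Anxa3 cluster, 9 members were past the fold, all 9 higher, beside 4.75% of all genes. The cause of these shifts was not tested. Resolution 0.5 gave no separate basal or spinous class and so no value there; equal cluster weights were not run for these layers, each a single cluster. For the single genes past the fold in these comparisons, 213 of 268 values under alternatives moved by less than counting error and 55 by more, and none of the 268 changed sign. Some of the 213 could not move. The minimum of UMIs does not enter a ratio, and resolutions 0.5 and 2 kept the same 1389 Card14KI and 2163 WT fibroblasts. The 213 and the kept signs are therefore no measure of stability. Among members not past the fold, equal cluster weights turned the sign of some, among them Ccn2 (-0.54 pooled, 0.80 weighted), Bmp7 (0.35, -0.11), Thbs1 (-0.15, 0.25) and Fstl3 (-0.24, 0.07). No paired analysis was possible because the labels give no replicate numbers and there was 1 library per genotype. Depth limits the low members: small UMI sums leave wide intervals, and small clusters have a high share of all genes past the fold.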
